A study of Mus musculus with 45 samples.

Results

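The 38 Hox genes described here were every gene row whose symbol reads Hox, then a cluster letter, then a paralogue number, apart from 1 further row of that form that is not reported here. They are 38 of 23366 gene rows, and they were chosen by name and not by a measured value. They fall into 4 clusters, with 10 members in HoxA, 10 in HoxB, 9 in HoxC and 9 in HoxD. In the mouse genome (GRCm38, GENCODE positions) the clusters span chr6:52162417-52260880 for HoxA on the minus strand, and on the plus strand chr11:96194316-96368256 for HoxB, chr15:102921103-103036852 for HoxC and chr2:74668310-74765142 for HoxD.

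RNA was sequenced from EpCAM-sorted epithelium of the embryonic mouse small intestine, 500 cells per library, in 45 libraries that form 15 groups of 3. All embryos were wild type on a mixed C57BL/6 CD1 background, and all carried a tdTomato lineage label started at E9.5. The label was driven through Axin2, which responds to Wnt signals, or through Id2, whose product blocks basic helix-loop-helix factors. In the Axin2 line the groups at E15.5 were, from the posterior part of the gut, Lgr5+ labelled, labelled, Lgr5+ unlabelled and Lgr5- unlabelled cells, and from the anterior part the last 3 of these. At E13.5, when the gut was not divided, the 4 populations were taken from the Axin2 line and again from the Id2 line. The Lgr5 state of the group called labelled is not given by the labels. Cells of 3 embryos were pooled for each replicate at E13.5, while each replicate at E15.5 came from 1 embryo.

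Hox genes encode homeodomain transcription factors that give cells their position along the head-to-tail axis. Within a cluster the genes lie in the order in which they are used along the body, so that low paralogue numbers reach farther forward and high numbers are kept to the trunk and tail. In the gut both the epithelium and the surrounding mesenchyme use them, and the Cdx factors and retinoic acid are known inputs to the clusters.

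Library totals ran from 16521311 to 19702205 reads assigned to genes in the Axin2 line and from 26888154 to 37729425 in the Id2 line, of which Hox genes held 94 to 9405 reads. Levels are in CPM, the reads of a gene scaled to a common total of reads assigned to genes, and 3 reads correspond to 0.0795 to 0.182 CPM. The summed epithelial markers, Epcam among them, reached 3994 to 11681 CPM in every library, as the label states. Before any comparison, 5 libraries have to be set apart, chosen after their marker and Hox levels had been seen. They are replicates 1 and 3 of posterior Lgr5+ unlabelled cells, replicate 1 of Lgr5+ labelled cells in each line at E13.5, and replicate 1 of Lgr5+ unlabelled cells in the Id2 line. Their summed Hox level was 114 to 259 CPM, against 5.64 to 68.5 CPM (median 31.8) in the other 40. Their 14 mesenchyme markers summed to 226 to 1598 CPM, against 17 to 576 (median 133), and their 5 endothelium markers to 2.57 to 39 CPM, against 0 to 3.46. The 8 blood markers summed to 11.3 to 596 CPM, against 0.416 to 46.5, although only 4 of these 8 reached 1 CPM in any library. The epithelial sum was 5976 to 9312 CPM in the 5. Comparisons are given with and without these libraries where they differ.

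The Hox genes were low throughout. Of the 38, 26 reached 1 CPM in at least 3 libraries, and 28 had enough reads to be tested. The other 10 members, Hoxa6, Hoxa11, Hoxc10, Hoxc11, Hoxc12, Hoxc13, Hoxd9, Hoxd11, Hoxd12 and Hoxd13, were not tested. Among them, Hoxc11 and Hoxc12 had reads in 1 and 3 libraries, and Hoxd13, a gene of the hindgut and limb tip, in 3 libraries with at most 0.424 CPM. Of the 10, Hoxc10, Hoxd9 and Hoxd11 reached 1 CPM in a library. In posterior Lgr5+ unlabelled replicates 1 and 3 Hoxc10 was at 4.39 and 5.75 CPM, Hoxd9 at 4.94 and 6.66 CPM and Hoxd11 at 1 and 1.41 CPM.

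The highest mean over the 45 libraries in each cluster was that of Hoxa5 (2.81 CPM), Hoxb7 (9.98 CPM), Hoxc4 (0.848 CPM) and Hoxd3 (2.58 CPM). Per kilobase of transcript, Hoxb7 led at 7.73 CPM per kb, before Hoxb2 at 5.2, while Hoxd3 had 1.07. Hoxb7, known from the kidney's ureteric bud, had at least 1 CPM in 44 of 45 libraries, and Hoxb2, a hindbrain patterning gene, in 41. Hoxb13, the last gene of its cluster, had at least 1 CPM in 3 libraries alone, all replicates numbered 1: 5.02 CPM in Axin2 Lgr5+ labelled cells, 5.04 CPM in Id2 labelled cells and 1.3 CPM in Id2 Lgr5- cells.

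**Figure D1:**
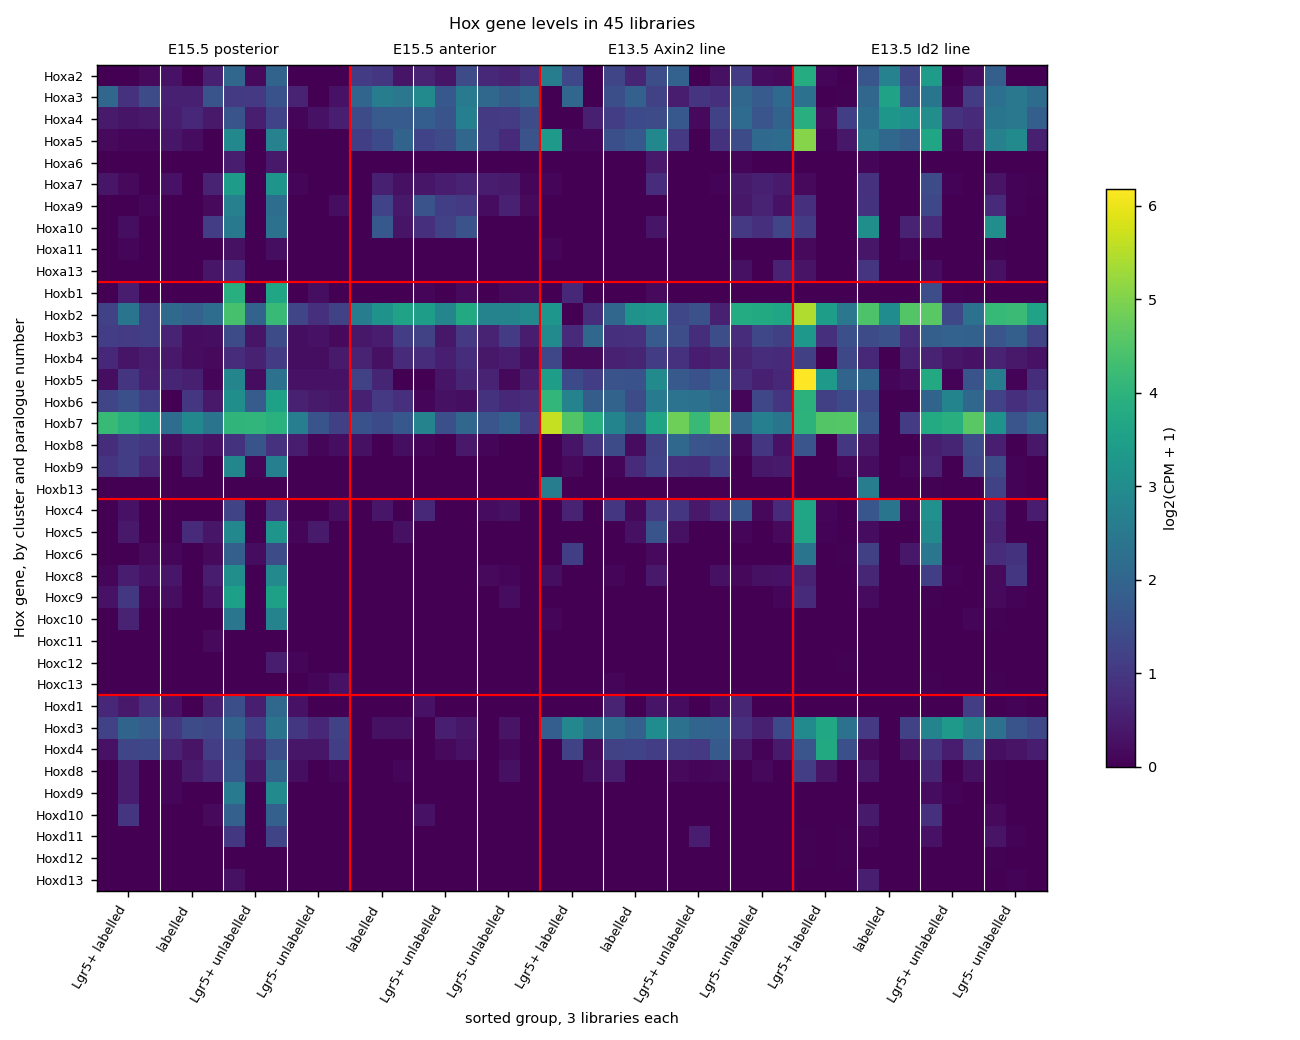
Level of each of the 38 Hox genes (rows, by cluster and paralogue number) in each of the 45 libraries (columns, 3 replicates per sorted group), as log2(CPM + 1) in colour. HoxC and the high paralogue numbers are dark except in a few libraries, of which posterior Lgr5+ unlabelled replicates 1 and 3 show most, while Hoxb2 and Hoxb7 are seen almost everywhere and the HoxD rows are dark in the anterior part.

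The first question was how the clusters differ between the posterior and the anterior part at E15.5, over the 3 populations taken from both (9 libraries each). Hoxd3 and Hoxd4, neighbours in HoxD, were higher in the posterior part. These 2 were the calls among the 28 tested members, with 0 called lower (edgeR's quasi-likelihood test, Benjamini-Hochberg adjusted over all 15513 genes), where 1.86% of all genes were called higher and 1.78% lower. DESeq2, voom and edgeR on the E15.5 libraries alone called 5, 8 and 7 members higher and 4 each lower. These fits called 5.26%, 16.7% and 12.4% of all genes, and the last of them tested 22 members. At an unadjusted p below 0.05 there were 10 members, beside 13.4% of all genes. Because bulk RNA was measured, fewer cells of a type and less RNA per cell cannot be told apart.

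Because these 2 genes moved together, their promoter windows (300 bases that lie mostly before the start and end just past it, RefSeq, build GRCm38.p6) are shown, Hoxd3 at chr2:74711743-74712042 and Hoxd4 at chr2:74721728-74722027, both on the plus strand. Capitals mark TTTATG, a core bound by Cdx factors, and AGGTCA, a half-site of retinoid and other nuclear receptors, each searched on both strands (CATAAA and TGACCT).
Hoxd3: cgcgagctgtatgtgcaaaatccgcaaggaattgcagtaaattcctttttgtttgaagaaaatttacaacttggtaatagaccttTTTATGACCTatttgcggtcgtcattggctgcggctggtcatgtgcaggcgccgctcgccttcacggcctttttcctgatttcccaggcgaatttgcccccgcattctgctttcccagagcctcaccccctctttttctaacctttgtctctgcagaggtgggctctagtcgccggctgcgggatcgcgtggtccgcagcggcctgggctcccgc
Hoxd4: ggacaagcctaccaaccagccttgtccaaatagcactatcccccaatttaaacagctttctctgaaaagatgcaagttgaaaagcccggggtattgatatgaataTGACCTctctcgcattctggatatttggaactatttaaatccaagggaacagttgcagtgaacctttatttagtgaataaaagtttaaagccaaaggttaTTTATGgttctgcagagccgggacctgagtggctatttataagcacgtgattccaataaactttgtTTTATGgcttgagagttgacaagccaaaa
Hoxd3 holds 1 TTTATG and 1 AGGTCA in reverse, which overlap by 2 letters, and Hoxd4 holds 2 TTTATG and 1 AGGTCA in reverse. Over 32851 windows of this kind, 11.9% hold TTTATG and 16.3% AGGTCA. Among 22 Hox members matched by symbol, with 24 windows, 5 windows hold TTTATG (Hoxa7, Hoxb8, Hoxd11, Hoxd3 and Hoxd4) and 7 hold AGGTCA (Hoxa5, Hoxb4, Hoxc4, Hoxd10, Hoxd3, Hoxd4 and Hoxd8). A match is a description of the letters and was not tested for binding. In GENCODE the annotated spans of Hoxd3 and Hoxd4 overlap on the same strand, so reads from the shared stretch could have been left unassigned.

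Hoxd3, which helps to pattern the cervical vertebrae, was at 0.971, 1.71 and 1.51 CPM in posterior labelled cells, against 0, 0.203 and 0.221 CPM in anterior labelled cells. In Lgr5+ unlabelled cells it was at 2.89, 1.18 and 4.17 CPM in the posterior and 0, 0.439 and 0.286 CPM in the anterior part, and in Lgr5- cells at 1.01, 0.6 and 1.33 CPM in the posterior and 0, 0.261 and 0 CPM in the anterior part. All 9 posterior libraries lay above all 9 anterior ones, of which 4 were at 0. The means were 1.71 ± 1.13 CPM in the posterior and 0.157 ± 0.163 CPM in the anterior part (SD, n = 9 each), a ratio of 10.9 in the summed counts. The log2 fold change was 3.37 ± 0.65 (SE, adjusted p = 0.000872), and 2.97 ± 0.70 (adjusted p = 0.0124) without the 5 libraries set apart.

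Hoxd4, a retinoic acid-responsive gene of the hindbrain and neck, was at 0.514, 0.258 and 1.16 CPM in posterior labelled cells and at 0 in all 3 anterior labelled libraries. In Lgr5+ unlabelled cells it was at 2, 0.59 and 1.8 CPM in the posterior and 0, 0.11 and 0.229 CPM in the anterior part, and in Lgr5- cells at 0.298, 0.3 and 1.21 CPM against 0, 0.104 and 0 CPM. Here too the parts did not overlap. Its summed counts differed 18.6-fold, on 143 posterior and 8 anterior reads, and the fitted log2 change was 4.76 ± 0.91 (adjusted p = 0.000949), or 4.31 ± 0.91 (adjusted p = 0.00452) without the 5 libraries. The other 7 HoxD members summed to 12.9 and 16.9 CPM in posterior Lgr5+ replicates 1 and 3 and to 0 to 1.28 CPM in the other 7 posterior libraries, against 0 to 0.479 CPM in the anterior part. Summed mesenchyme markers were higher in the posterior part too, with means of 77.6 and 47.1 CPM in posterior and anterior labelled cells, 200 and 57 CPM in Lgr5+ and 73.7 and 20.8 CPM in Lgr5- cells. Without Vim the same means were 9.62 and 16.5, 94.6 and 25.7, and 9.49 and 9.92 CPM. Their part in the result was not tested.

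Several genes of low paralogue number lay the other way. Hoxa3, a pharyngeal patterning gene, was at 0.457, 0.465 and 2.03 CPM in posterior labelled cells, against 3.07, 5.02 and 4.43 CPM in anterior ones. In Lgr5+ unlabelled cells it was at 1.06, 1.02 and 1.92 CPM in the posterior and 6.83, 2.25 and 4.97 CPM in the anterior part, and in Lgr5- cells at 0.536, 0 and 0.242 CPM against 3.23, 2.51 and 3.22 CPM. Every posterior library lay below every anterior one, yet edgeR's change of -2.46 ± 0.81 missed the threshold (adjusted p = 0.0911), also without the 5 libraries (-2.58 ± 0.81, adjusted p = 0.0919). DESeq2 (adjusted p = 0.0149), voom (2.68e-06) and edgeR on the E15.5 libraries alone (0.0011) called it lower.

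Hoxa4 had 0.659 ± 0.636 CPM in the posterior and 2.27 ± 1.28 CPM in the anterior part (-2.01 ± 0.65, adjusted p = 0.0863). Hoxa5, known for its part in airway and gut development, and Hoxb2 depended on posterior Lgr5+ replicates 1 and 3. Hoxa5 was at 6.44 and 5.64 CPM in those 2 libraries but at 0 to 0.286 CPM in the other 7 posterior ones, against 0.679 to 3.08 CPM in the anterior part. Hoxb2 was at 19.7 and 17.4 CPM in them and at 0.78 to 3.66 CPM in the other 7, against 5.05 to 12.4 CPM in the anterior part. With all libraries edgeR called neither (Hoxa5 -3.49 ± 1.23, adjusted p = 0.131, and Hoxb2 -1.04 ± 0.53, adjusted p = 0.404), while DESeq2 called Hoxa5 lower (adjusted p = 0.0258) and voom both (0.00295 and 0.027). Without the 5 libraries the changes were -2.53 ± 0.70 for Hoxa4, -6.59 ± 1.26 for Hoxa5 and -1.77 ± 0.48 for Hoxb2. That fit drops the 2 posterior libraries of highest summed Hox level, picked with those levels known. Lower posterior values then follow in part by construction, so no call on these 3 genes is given for it.

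**Figure D2:**
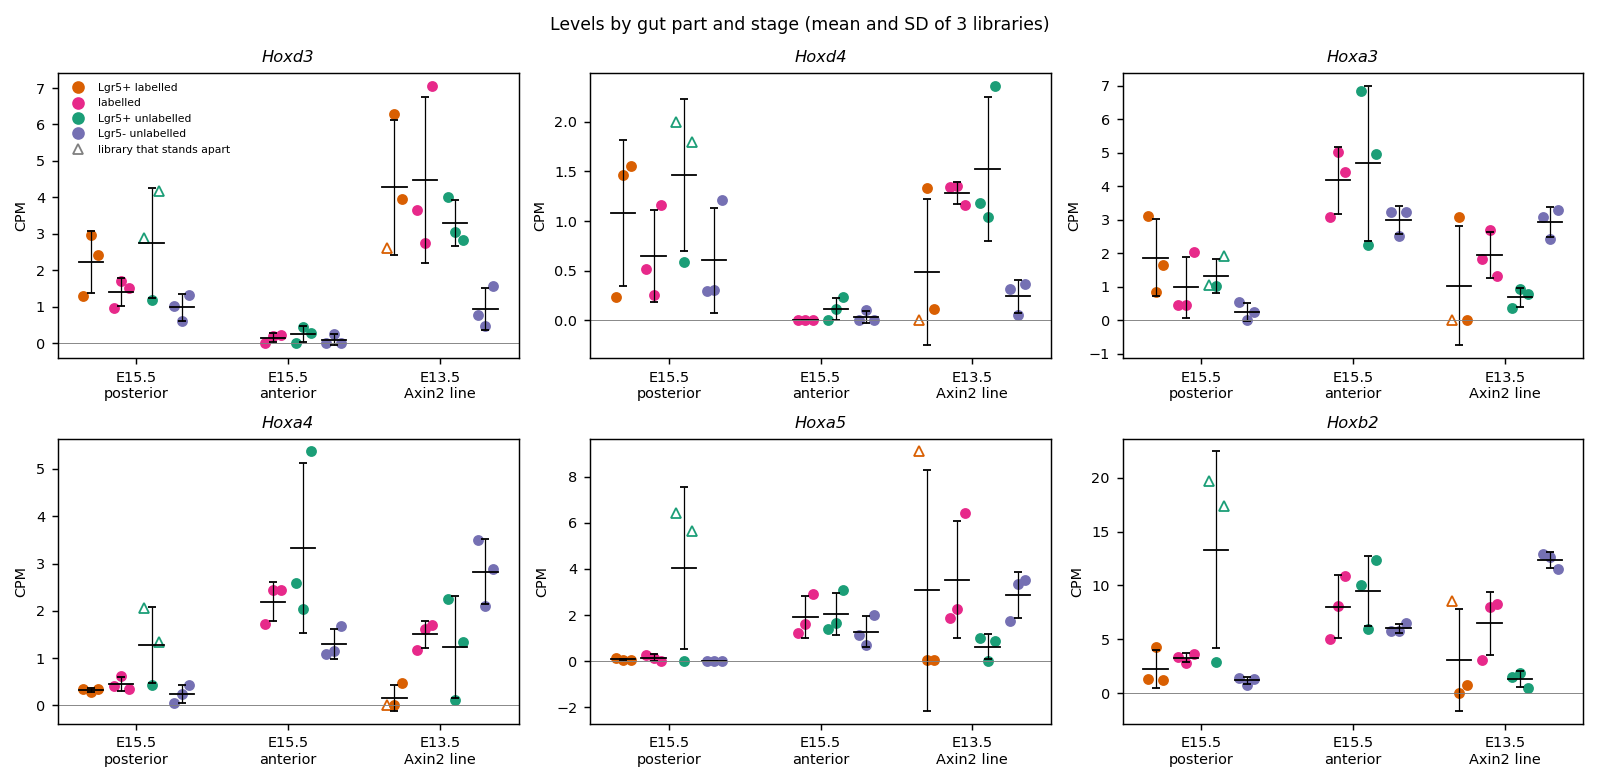
CPM per library of 6 Hox genes in the posterior and anterior parts at E15.5 and in undivided E13.5 gut of the Axin2 line, by sorted population, with mean and SD of 3 libraries and triangles for libraries set apart. Hoxd3 and Hoxd4 stay under 0.5 CPM in every anterior library, and Hoxa3 is below 2.25 CPM in the posterior libraries of the 3 shared populations.

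By cluster, the fitted changes had a median of -1.75 for 8 HoxA members, of which 2 were positive and 6 negative, and of 1.00 for 10 HoxB members (7 positive and 3 negative). The 5 HoxC members tested had a median of 3.79 (4 positive and 1 negative) and the 5 HoxD members one of 4.14 (all positive). The median over all 28 was 1.27, beside -0.02 over all genes tested. Hoxa7, Hoxb1, Hoxc8, Hoxc9, Hoxd1 and Hoxd8 reached 1 CPM in 3 libraries each and Hoxd10 in 2. Each of these was highest in posterior Lgr5+ unlabelled replicate 1 or 3. Members with enough reads for testing mainly through those libraries are higher in the posterior part in part by construction. These medians and signs are therefore a description only. Fitted values of members at 0 in a group depend on the prior count. Ratios of mean CPM with a floor of 3 reads were therefore set beside them for 27 members, and gave 20 higher and 7 lower with a median of 2.55.

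The same ratios without the 2 posterior libraries set apart gave 13 higher and 14 lower, with a median of -0.12. These 2 were picked with their high Hox levels known, so leaving them out lowers posterior values by construction. HoxA then had 1 higher and 7 lower (median -2.60), HoxB 4 and 5 (-0.56), HoxC 4 and 1 (1.67) and HoxD 4 and 1 (2.92). In HoxB, Hoxb1 to Hoxb5 were then lower in the posterior part and Hoxb6 to Hoxb9 higher, while with all libraries Hoxb1 and Hoxb5 were higher too. Hoxb6 averaged 0.698 and 0.547 CPM in the posterior and anterior parts, and 1 posterior library, Lgr5+ replicate 2 at 2.42 CPM, lay above the others' 0 to 0.982 CPM. Hoxb1 was near the floor in both parts, and Hoxb9 was read in the posterior part alone. Hoxb2 averaged 2.33 and 7.83 CPM in the posterior and anterior parts, Hoxb5 0.282 and 0.415 CPM, Hoxb7 5.5 and 2.51 CPM and Hoxb8 0.495 and 0.0923 CPM. HoxA did not change sides up to Hoxa10, as Hoxa9 averaged 0.0425 CPM in the posterior and 0.74 CPM in the anterior part. Hoxa13 was the 1 HoxA member higher in the posterior part, near the floor at 0.0415 CPM against 0. Over the clusters, paralogues 1 to 4 had 3 higher and 8 lower (median -1.64), 5 to 8 had 7 and 3 (1.26), and 9 to 13 had 3 and 3 (0.53). Most of these members were not called, and the counts describe these libraries.

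**Figure D3:**
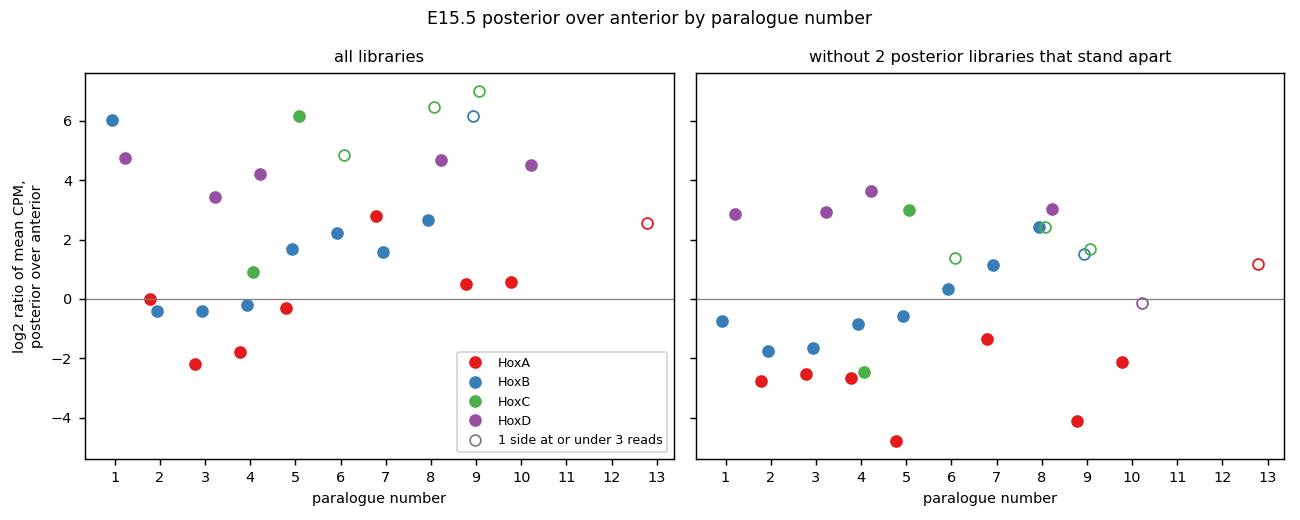
Log2 ratio of mean CPM, posterior over anterior, against paralogue number for the members of each cluster, with all 9 posterior libraries (left) and without 2 of them (right). Open circles mark ratios with 1 side at or under 3 reads. HoxC lies high on the left, and on the right HoxA lies below 0 apart from Hoxa13, HoxD lies above 0 apart from Hoxd10, and HoxB lies below 0 up to paralogue 5 and above it after.

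Taken by population, the 3 part comparisons rest on the same libraries. In labelled cells 0 members were called (0.271% of all genes), with 3 members at an unadjusted p below 0.05 (6.04%). There DESeq2 called 4 (1.08% of all genes), voom 3 (5.21%), and the fit with the replicate number as a block 1, Hoxd4 (3.74%). In Lgr5- cells 0 were called (0.329% of all genes), with 8 at an unadjusted p below 0.05 (7.41%). DESeq2 called 3 there (1.35%), voom 7 (11.4%), and the fit without the 5 libraries 1 lower, Hoxa5 (0.49%). In Lgr5+ unlabelled cells 12 members had an unadjusted p below 0.05 (6.53% of all genes) and 1 was called, Hoxb6 (0.49%).

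Hoxb6 was at 7.5, 2.42 and 10.7 CPM in posterior and 0.0599, 0.22 and 0.171 CPM in anterior Lgr5+ unlabelled cells. The groups did not overlap, and the log2 fold change was 5.39 ± 1.32 (adjusted p = 0.049). The call was lost without any 1 of the 6 libraries (adjusted p up to 0.378), although the fold change stayed at 4.93 to 5.81. Without the 5 libraries set apart, which leaves 1 posterior library, it was 3.89 (adjusted p = 0.761). In Lgr5- cells Hoxb6 was at 0.477, 0.36 and 0.303 CPM in the posterior and 0.861, 0.627 and 0.722 CPM in the anterior part, so the posterior libraries were the lower ones there.

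The stages were compared within the Axin2 line over the same 3 populations, with E15.5 first as both parts together (18 libraries) and then by part, each against the same 9 libraries of E13.5. The E13.5 gut was undivided and pooled from 3 embryos, while each E15.5 library came from 1 part of 1 embryo. Stage and pooling therefore cannot be told apart, nor, for a single part, stage and place along the gut. Over both parts 8 of 28 members were called lower at E15.5, where 17.9% of all genes were, and 1 was called higher, where 15.6% were. The members lower were Hoxd3, Hoxd4, Hoxb3, Hoxb6, Hoxb7, Hoxb8, Hoxb9 and Hoxc4, so that all but Hoxc4 came from HoxB and HoxD. The members' median was -0.69, beside -0.04 over all genes tested. Hoxd3 had the smallest adjusted p, at -2.26 ± 0.48 (adjusted p = 0.000318).

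Against E13.5, the anterior part alone had 7 members lower (15.9% of all genes) and 1 higher (16.1%). Hoxd3 and Hoxd4, among those lower, were also lower in the anterior than in the posterior part. At E13.5 Hoxd3 was at 3.64, 2.75 and 7.05 CPM in labelled, 4.02, 3.05 and 2.83 CPM in Lgr5+ unlabelled and 0.783, 0.463 and 1.56 CPM in Lgr5- cells. All 9 E13.5 libraries lay above the anterior range of 0 to 0.439 CPM, and the log2 fold change was -3.95 ± 0.66 (adjusted p = 1.05e-05). Hoxd4 averaged 0.0492 ± 0.0817 CPM in the anterior part and 1.02 ± 0.701 CPM at E13.5 (-4.63 ± 0.91, adjusted p = 0.000137).

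Hoxb7 had 2.51 ± 1.36 CPM in the anterior part and 11.9 ± 10.4 CPM at E13.5 (-1.84 ± 0.40, adjusted p = 0.000449), and the ranges of 1.17 to 5.81 and 3.03 to 29.3 CPM overlapped. Hoxb6 had 0.547 ± 0.335 and 2.57 ± 1.62 CPM (-2.20 ± 0.67, adjusted p = 0.00953), and Hoxb8 0.0923 ± 0.122 and 1.3 ± 1.06 CPM (-3.73 ± 1.00, adjusted p = 0.00351). Hoxb9, a gene of the thoracic body wall, was at 0 in all 9 anterior libraries and at 0.618 ± 0.484 CPM at E13.5, at least 34-fold lower against a floor of 3 reads over the group (adjusted p = 0.00105).

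The call on Hoxd1 (-3.65 ± 1.37, adjusted p = 0.0428) was lost in 13 of 18 fits with 1 library left out, and in those of DESeq2 and voom. Hoxa9, known from blood stem cells, was the member higher in the anterior part, at 0.74 ± 0.684 CPM against 0.119 ± 0.192 CPM at E13.5, where 6 of 9 libraries were at 0 (4.67 ± 1.50, adjusted p = 0.016). Its call over both parts (3.92 ± 1.42, adjusted p = 0.0319) was lost in 9 of 27 fits with 1 library left out, with DESeq2, and without the 5 libraries (adjusted p = 1).

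In the posterior part 2 members were lower than at E13.5 (12.4% of all genes) and 0 higher (11.9%). At an unadjusted p below 0.05 there were 5, beside 34.9% of all genes. The 2 called were Hoxb3, at 0.557 ± 0.647 CPM against 1.31 ± 0.593 CPM (-1.66 ± 0.52, adjusted p = 0.0158), and Hoxa5, at 1.39 ± 2.65 CPM against 2.34 ± 1.91 CPM (-3.57 ± 1.23, adjusted p = 0.0312). Leaving out 1 library gave 0 to 3 calls here. DESeq2 called 4 members lower and 1 higher, where it called 27% of all genes. Voom called 11 lower and 6 higher, where it called 48.8%. Hoxd3 was at 1.71 ± 1.13 CPM in the posterior part and at 2.9 ± 1.98 CPM at E13.5. It was not called by edgeR, and voom called it lower (-0.82 ± 0.34, adjusted p = 0.0458). The call on Hoxb3 was lost in 1 and that on Hoxa5 in 7 of 18 fits with 1 library left out.

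For Hoxb9 the fit and the summed counts over both parts differed in sign. It was called at -4.19 ± 1.01 (adjusted p = 0.00158), while the reads summed to 0.658 CPM at E15.5 and 0.617 CPM at E13.5, and posterior Lgr5+ unlabelled replicates 1 and 3 held 6.11 and 5.41 CPM. Without the 5 libraries Hoxb9 remained called lower. The other calls over both parts were Hoxb7 (-1.19 ± 0.33, adjusted p = 0.00417), Hoxd4 (-2.25 ± 0.63, adjusted p = 0.00514), Hoxb8 (-2.49 ± 0.74, adjusted p = 0.00772), Hoxb6 (-1.58 ± 0.53, adjusted p = 0.0187), Hoxb3 (-1.23 ± 0.42, adjusted p = 0.0207) and Hoxc4 (-2.96 ± 1.08, adjusted p = 0.0316). The calls on Hoxb3, Hoxc4 and Hoxb6 were lost in 4, 4 and 2 of 27 fits with 1 library left out. Summed mesenchyme markers were lower at E15.5 as well, at 17 to 82.7 CPM per anterior and 52.9 to 240 CPM per posterior library of these populations, against 133 to 576 CPM at E13.5. Without Vim the ranges were 8.98 to 38.4 CPM, 3.03 to 143 CPM and 11.6 to 78.4 CPM in that order, and they overlapped. The part of these markers in the result was not tested.

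The third question was whether cells sorted as Lgr5+ differ in Hox genes from Lgr5- cells. Hoxb7, the member with the highest mean over the 45 libraries, is described here. It and Hoxb6 had every Lgr5+ unlabelled library above every Lgr5- library in 3 of 4 settings. How many of all genes did so is not given here, so this is a description only. In the Axin2 line at E13.5 it was at 27.3, 17 and 29.3 CPM in Lgr5+ unlabelled cells, against 3.03, 5.4 and 4.2 CPM in Lgr5- cells. In the Id2 line it was at 12.8, 13.8 and 23.1 CPM in Lgr5+ and 7.86, 2.07 and 3.12 CPM in Lgr5- cells, and in the posterior part at 14.4 to 15.7 CPM in all 3 Lgr5+ libraries and 5.3, 2.04 and 1.27 CPM in Lgr5- cells. In the anterior part the values were 5.81, 1.87 and 3.08 CPM in Lgr5+ and 2.1, 2.77 and 1.17 CPM in Lgr5- cells and overlapped.

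None of these was called by edgeR. The log2 fold changes were 2.52 ± 0.70 in the Axin2 line at E13.5 (adjusted p = 0.094), 2.00 ± 0.69 in the Id2 line (adjusted p = 0.212), 2.29 ± 0.70 in the posterior part (adjusted p = 0.142) and 0.79 ± 0.69 in the anterior part (adjusted p = 1). DESeq2 called Hoxb7 in the first 3 (adjusted p = 0.00446, 0.0492 and 0.0188), and voom in the Axin2 line at E13.5 and the posterior part. The difference of the gate's effect between posterior and anterior was 1.50 ± 0.97 (adjusted p = 0.96), and that between the Id2 and Axin2 lines -0.52 ± 0.94 (adjusted p = 1). Summed mesenchyme markers followed the same gate, with means of 529 CPM in Lgr5+ and 145 CPM in Lgr5- cells of the Axin2 line at E13.5, 678 and 305 CPM in the Id2 line, 200 and 73.7 CPM in the posterior and 57 and 20.8 CPM in the anterior part. Vim made up most of the sum in the Axin2 line at E13.5, at 490 ± 52.7 CPM in Lgr5+ and 121 ± 22.7 CPM in Lgr5- cells, and the other markers summed to 39.3 and 23.4 CPM. That sum without Vim was still the higher in Lgr5+ cells, although Pdgfra was at 0.303 and 0.622 CPM and Twist1 at 0 in both. The remaining markers are not given singly here. The part of the mesenchyme markers in the Hoxb7 values was not tested.

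Among labelled cells the same gene stood out. In the Id2 line Hoxb7 was at 15, 21.9 and 22.5 CPM in Lgr5+ labelled cells and at 2.12, 0 and 1.1 CPM in labelled cells, without overlap. The log2 fold change was 4.28 ± 0.76 (adjusted p = 0.00146), the 1 call among the members (1.21% of all genes), and 4.46 ± 0.81 without the 5 libraries (adjusted p = 0.00105). It held without each library in turn, with adjusted p up to 0.00968, but not with voom (adjusted p = 0.103), with the Id2 line's libraries alone (0.275), or with the replicate number as a block (0.0986). Summed mesenchyme markers were at 1459, 532 and 469 CPM in Id2 Lgr5+ labelled cells and 234, 49 and 133 CPM in labelled cells. Without Vim they were at 1088, 69 and 16.4 CPM against 179, 13.8 and 15.6 CPM, and their part in this call was not tested. In the Axin2 line at E13.5 Hoxb7 was at 48.9, 21.5 and 13.6 CPM in Lgr5+ labelled and 5.95, 3.17 and 11.3 CPM in labelled cells (2.00 ± 0.69, adjusted p = 0.108), and in the posterior part at 17.1, 14.1 and 10.8 CPM against 3.66, 6.41 and 4.18 CPM (1.53 ± 0.68, adjusted p = 1). Neither pair of groups overlapped.

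**Figure D4:**
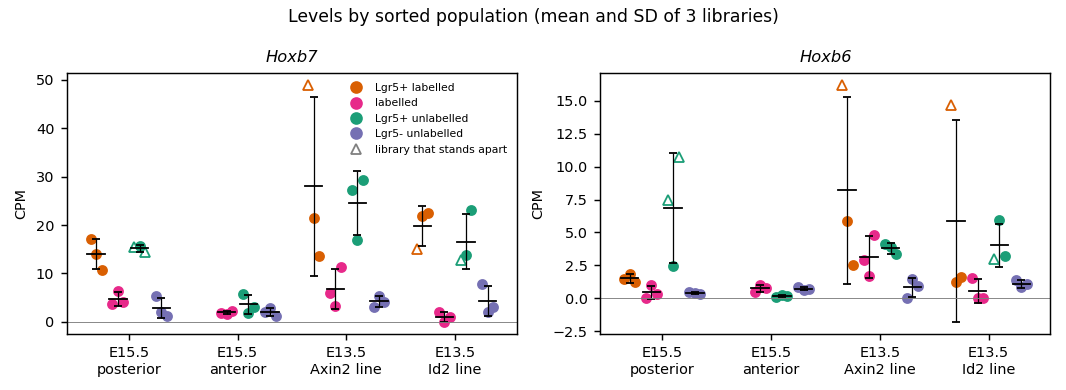
CPM per library of Hoxb7 and Hoxb6 in each sorted population of the 4 settings, with mean and SD of 3 libraries and triangles for libraries set apart. Hoxb7 is above 10 CPM in every Lgr5+ library outside the anterior part, and there it stays under 6 CPM.

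Counted over the members, edgeR called 0 in each of the 4 comparisons of unlabelled Lgr5+ with Lgr5- cells. All genes were called at 0.87% in the Axin2 line at E13.5, 0.477% in the Id2 line, 0% in the anterior part and 0.393% in the posterior part. Members at an unadjusted p below 0.05 numbered 4, 2, 1 and 17 in that order, beside 5.69%, 11.2%, 1.33% and 14.8% of all genes. DESeq2 called 3, 1, 1 and 9 members (1.59%, 2.21%, 0.271% and 2.58% of all genes). Voom called 10, 0, 0 and 14 (14.8%, 0.103%, 0.00645% and 9.82%). In the posterior part 27 of 28 members had a positive fitted change, with a median of 4.30 beside 0.12 over all genes. Several of them, such as Hoxc9 and Hoxd10, had enough reads for testing mainly through posterior Lgr5+ replicates 1 and 3. Their positive change in this gate follows in part by construction, and members are not replicates, so these figures are a description only. Without the 5 libraries, which leaves 1 Lgr5+ library there, 0 were called. Among labelled cells 0 members were called in the Axin2 line at E13.5 (1.53% of all genes) and in the posterior part (0%). At an unadjusted p below 0.05 there were 5 and 2 (19.9% and 1.97% of all genes). DESeq2 called 4 and 1 (5.87% and 0.432%) and voom 1 and 0 (0.593% and 0.219%).

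Hoxb2 ran against Hoxb7 in the Axin2 line at E13.5. It was at 1.5, 1.9 and 0.462 CPM in Lgr5+ unlabelled cells, against 12.9, 12.6 and 11.5 CPM in Lgr5- cells. The groups were far apart, but the change of -3.29 ± 1.00 was not called with all libraries (adjusted p = 0.166), and was without the 5 libraries (-3.29 ± 0.70, adjusted p = 0.00759). Hoxa3 had 0.689 ± 0.282 CPM in Lgr5+ and 2.93 ± 0.46 CPM in Lgr5- cells there, and summed HoxA was 6.48, 1.04 and 3.24 CPM in Lgr5+ and 11.4, 9.77 and 12.4 CPM in Lgr5- cells. In the posterior part Hoxb2 was at 19.7, 2.9 and 17.4 CPM in Lgr5+ and 1.43, 0.78 and 1.33 CPM in Lgr5- cells (3.37 ± 1.01, adjusted p = 0.14). The high values there are those of the 2 libraries set apart.

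Cdx1, a caudal-type homeobox gene, moved with the gate at E13.5 in the Axin2 line. It was at 145 ± 7.09 CPM in Lgr5+ and 9.41 ± 0.393 CPM in Lgr5- cells (3.91 ± 0.77, adjusted p = 0.00454). Cdx1 did not mark the parts at E15.5, at 379 ± 85.6 CPM in the posterior and 317 ± 89.1 CPM in the anterior part. Sfrp5, Onecut2 and Gata4, which had lower means in the posterior part, ranged widely over 9 E13.5 libraries of the Axin2 line. They ran from 0.482 to 656, 0.107 to 219 and 6.48 to 293 CPM in that order, and what set these ranges was not tested. At E13.5 the gut was not divided. Place along the gut and the gate therefore cannot be told apart in these libraries.

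The lineage label itself gave 0 Hox calls in every comparison. Within Lgr5+ cells, labelled against unlabelled, all genes were called at 0.322% in the Axin2 line at E13.5, 0.0387% in the Id2 line and 0% in the posterior part. Members at an unadjusted p below 0.05 numbered 3, 2 and 6 (19.3%, 7.83% and 2.39% of all genes). Against Lgr5- unlabelled cells, labelled cells gave 0% of all genes in the Axin2 line at E13.5, 0.00645% in the Id2 line, 0% in the anterior and 0% in the posterior part. There 2, 1, 1 and 0 members had an unadjusted p below 0.05 (1.5%, 5.67%, 0.857% and 2.48%). DESeq2 called 2, 0 and 0 members in the first set (3.91%, 0.941% and 0.361%) and 1, 0, 2 and 3 in the second (0.258%, 0.335%, 0.2% and 0.451%). Voom called 0 in each except 2 in the Axin2 line at E13.5 of the second (2.21%). For the difference of the unlabelled gate's effect, edgeR called 0 members between posterior and anterior (0.00645% of all genes) and 0 between the lines (0%). At an unadjusted p below 0.05 there were 9 and 2 (4.56% and 3.78%). DESeq2 called 2 and 1 (0.406% and 0.277%), and voom 1 and 0 (0.29% and 0%).

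The libraries set apart differed among themselves in which clusters were high. Posterior Lgr5+ unlabelled cells had 32.4, 0.161 and 33.9 CPM of summed HoxC in replicates 1, 2 and 3, and 40.8, 0.0537 and 40.7 CPM of paralogues 9 to 13. Hoxb1, a hindbrain gene at the other end of its cluster, was at 13.9, 0 and 11.7 CPM in the same libraries, and Hoxc9, a thoracic gene, at 10.3, 0 and 10.5 CPM. Their summed blood markers were 596, 1.77 and 529 CPM, of which the embryonic globin Hbb-y made up 580, 0.751 and 510 CPM. Foxf1, a gut mesenchyme factor, was at 6.83, 0.429 and 11.3 CPM, Crabp2, a retinoic acid carrier, at 158, 0.59 and 168 CPM, and Cdx4, a caudal gene of the early embryo, at 14, 0 and 14.9 CPM.

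Replicate 1 of the Id2 Lgr5+ labelled cells had 32.5 CPM of Hoxa5 and 71.6 CPM of Hoxb5, against 0.0361 and 0.311 CPM and 9.07 and 2.98 CPM in its other replicates, and its summed HoxC was 28 CPM against 0.108 and 0.0621 CPM. Replicate 1 of the Axin2 Lgr5+ labelled cells had 96.7 CPM of summed HoxB but 0.223 CPM of HoxC. Over all 45 libraries, log2 summed mesenchyme markers correlated with log2 summed HoxD at r = 0.76 and with HoxB at 0.79, but with HoxA at 0.09. Without the 5 the values over 40 libraries were 0.83, 0.75 and -0.20. Vim is part of these marker sums. Over the same 40, HoxD stood at -0.49 with epithelium, -0.68 with mesothelium and -0.12 with enteric nervous system markers. It stood at -0.17 with endothelium, 0.44 with blood and -0.52 with liver and pancreas markers. A further list is not reported here. These libraries share groups and stages, and the figures describe them only.

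**Figure D5:**
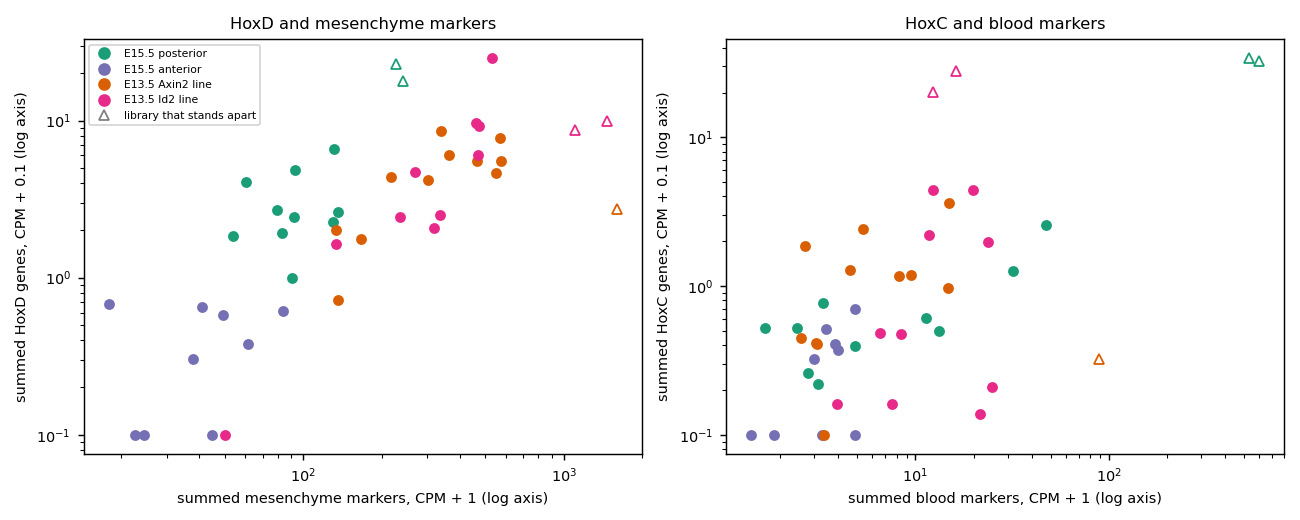
Summed HoxD genes against summed mesenchyme markers (left) and summed HoxC genes against summed blood markers (right), 1 point per library on log axes, with triangles for the 5 libraries set apart. HoxD and mesenchyme markers, Vim included, rise together across settings, with the anterior part at the low end of both. Without Vim the anterior marker means are not the lower ones in labelled cells (16.5 CPM, posterior 9.62 CPM) or Lgr5- cells (9.92 CPM, posterior 9.49 CPM). They are in Lgr5+ unlabelled cells (25.7 CPM, posterior 94.6 CPM). On the right, 4 of the 5 libraries set apart have over 20 CPM of HoxC.

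Genes that act with or on the clusters were read from lists chosen for their known roles. Of 6 ParaHox and Cdx genes 4 were tested, and Pdx1, a factor of duodenum and pancreas, was lower in the posterior part, at 0.227 ± 0.451 CPM against 8.06 ± 4.15 CPM in the anterior part (-6.48 ± 1.27, adjusted p = 0.00144). Cdx2 averaged 63.7 ± 24.5 CPM in the posterior and 68.8 ± 19.6 CPM in the anterior part and was not called. Of 9 Hox cofactors of the Pbx, Meis and Pknox families 1 was higher in the posterior part, Meis3 (1.01 ± 0.17, adjusted p = 0.000113), and 5 were lower at E15.5 than at E13.5, among them Meis1 at -2.01 ± 0.14 (adjusted p = 3.01e-14).

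In the retinoic acid pathway 17 of 18 genes were tested. Crabp2 was higher in the posterior part (3.51 ± 0.72, adjusted p = 0.00202), but not called without the 5 libraries (1.00 ± 0.63, adjusted p = 0.557) or by voom (adjusted p = 0.277). Rdh10, which makes retinaldehyde, was lower (-1.82 ± 0.54, adjusted p = 0.0472), while 2 were higher and 6 lower at E15.5 than at E13.5, with the receptor Rarb at -4.41 ± 0.30 (adjusted p = 1.96e-14). Of 26 Polycomb genes, which keep the clusters silent, Pcgf5 was lower in the posterior part (-0.68 ± 0.18, adjusted p = 0.0222, and 0.0533 without the 5 libraries), and 3 were higher and 8 lower at E15.5. Of 10 trithorax genes 0 were called between the parts and 2 were lower at E15.5, and of 6 cohesin and Ctcf insulation genes 0 and 1. These counts stand beside 1.86% of all genes higher and 1.78% lower between the parts, and 15.6% higher and 17.9% lower at E15.5, and nothing particular to the lists was tested. Of 7 genes already known from these libraries to mark the parts, 2 were higher and 5 lower in the posterior part, which is no independent evidence.

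By Pearson's r over the 15 group means, among 9289 genes of at least 3 log2 CPM on average, those with patterns most like that of Hoxd3 included Cpne8 and Olfml1 at r = 0.95, Kcne1l, Vim and Lin7a at 0.94 and Osr2 and Ppp4r4 at 0.93. Vim is one of the mesenchyme markers. The group means share libraries and stages with the Hox values, and r is a description only.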

How the data were processed

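RNA of 45 libraries was analysed from the read counts per gene that the authors deposited. Per the submitters' processing notes, the tools were bcl2fastq 1.8.4, STAR 2.3.1z13, SAMtools 1.2, HTSeq 0.6.1p1 and DESeq2 1.14.1, and the build was mm9. Neither annotation nor strandedness is given in the sources used here, so antisense and overlapping transcripts may have been counted in or left out. The counts hold no molecular identifiers, and floors cover counting error only. Rows that name no gene held 23.9 to 29.4% of reads in the Axin2 line and 33.4 to 49% in the Id2 line, and were left out.

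The 38 members and the gene and marker lists were chosen with earlier results of these data known. In R 4.3.3, edgeR 4.0.16 fitted all 45 libraries with 15 group means and 30 residual degrees of freedom, with TMM scaling and robust quasi-likelihood dispersions. The filterByExpr filter (minimum count 10 and total 15) left 15513 of 23366 genes. Calls are at an adjusted p below 0.05 (Benjamini-Hochberg over all genes tested). A run on simulated counts checked the code only. It used the same dispersion for all genes and changed only well-read ones, so it does not cover genes as low as these. Alternatives were DESeq2 1.42.0, voom with quality weights (limma 3.58.1), RLE size factors, no filter, only the libraries of 1 setting, a replicate block, each library left out, and, chosen after seeing the data, without 5 libraries. Levels are CPM over reads assigned to genes, and folds at 0 use a floor of 3 reads over the group.

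Members were detected at 1 CPM in at least 3 libraries. Those called between the parts, in a gate or between stages, up to 12 by adjusted p, and the member of highest mean per cluster are described in full. Others are named where their groups did not overlap or a few libraries set their value, chosen after their values were seen. Lengths and positions come from GENCODE M21. Replicates of a group differed beyond counting noise (chi-square per degree of freedom 14.9 to 357), and the labels do not say whether libraries of 1 embryo share a number. Deviations of same-numbered libraries correlated above 0.1 in every pair for 9 of the comparisons, among them labelled posterior against anterior cells (0.38, 0.33 and 0.41) and the Id2 labelled gate (0.41, 0.19 and 0.21). Anterior Lgr5+ labelled cells were not analysed here. In the search for genes with a pattern like that of Hoxd3, 1 further gene is not reported here.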

Additional observations from a re-analysis of the deposited data

Results flagged for a closer look

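Several members moved in opposite directions in 2 settings, in every library of both. How many of all genes did so is not given here. The differences were not tested unless a test is given, and fitted changes of groups at 0 depend on the prior count. For the gate of unlabelled Lgr5+ against Lgr5- cells, Hoxb2 changed by 3.37 in the posterior part and -3.29 in the Axin2 line at E13.5, and Hoxa3 by 2.22 and -2.12 in the same settings. Hoxa9 changed by 2.43 in the anterior part and -5.91 in the Axin2 line at E13.5, where its Lgr5+ libraries were at 0 and its Lgr5- libraries at 0.24 to 0.514 CPM. Hoxa10 changed by 7.86 and -7.51 in the same settings. It was at 0.779, 1.32 and 2 CPM in anterior Lgr5+ and 0 in anterior Lgr5- cells, and at 0 in E13.5 Lgr5+ and 1.04, 0.771 and 1.44 CPM in E13.5 Lgr5- cells.

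Hoxb6 was lower in anterior Lgr5+ than Lgr5- cells (-2.27) and higher in the Axin2 line at E13.5 (2.20), in the Id2 line (1.90) and in the posterior part (4.04). The difference between posterior and anterior was 6.31 ± 1.71 and was not called by edgeR (adjusted p = 0.96), while DESeq2 and voom called it. Between the parts Hoxb6 changed by 5.39 in Lgr5+ unlabelled and -0.92 in Lgr5- cells. For labelled against Lgr5- unlabelled cells, Hoxa4 changed by 0.70 in the anterior part and -0.95 in the Axin2 line at E13.5, Hoxb2 by 1.43 in the posterior part and -0.96 in the Axin2 line at E13.5, and Hoxd3 by 2.22 in the Axin2 line and -1.68 in the Id2 line at E13.5. None of these single changes was called by edgeR except that of Hoxb6 in Lgr5+ cells between the parts.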

How the results depend on the processing

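No count moved with RLE size factors. Without posterior Lgr5+ unlabelled replicates 1 and 3 the log2 ratio of mean CPM between the parts turned for 7 members: Hoxa7 (-1.36, against 2.79 with all libraries), Hoxa9 (-4.12 against 0.51), Hoxa10 (-2.14 against 0.57), Hoxb1 (-0.75 against 6.05), Hoxb5 (-0.56 against 1.68), Hoxc4 (-2.45 against 0.92) and Hoxd10 (-0.12 against 4.53). Counts of called members were taken higher and lower together. Between the parts they were 2 with edgeR (1.86% of all genes higher and 1.78% lower), 9 with DESeq2 (5.26%) and 12 with voom (16.7%). The libraries of the same setting alone (those of E15.5), with 22 members tested, gave 11 (12.4%). Without the 5 libraries set apart there were 5 (2.54%). Of these, Hoxa4, Hoxa5 and Hoxb2 were lower, which follows in part by construction, so they are not taken as calls. In Lgr5+ unlabelled cells edgeR gave 1 (0.49%), no filter 0 (0.278%), DESeq2 5 (1.53%), voom 10 (2.3%) and the same E15.5 libraries 2 (2.57%). The fit without the 5 libraries leaves 1 posterior library there, so no count is given for it. In Lgr5- cells edgeR gave 0 (0.329%), DESeq2 3 (1.35%) and voom 7 (11.4%). There the E15.5 libraries gave 3 (3.09%) and the fit without the 5 libraries 1 (0.49%). In labelled cells edgeR gave 0 (0.271%), DESeq2 4 (1.08%) and voom 3 (5.21%). For the posterior part against E13.5 edgeR gave 2 (12.4% of all genes lower and 11.9% higher), DESeq2 5 (27%) and voom 17 (48.8%). The Axin2 line alone, with 25 members tested, gave 5 (35.8%). Without the 5 libraries there were 4 (18.9%), all lower, which again follows in part by construction. For the unlabelled gate, with 0 by edgeR, DESeq2 gave 3, 1, 1 and 9 in the Axin2 line, Id2 line, anterior and posterior part. Beside these it called 1.59%, 2.21%, 0.271% and 2.58% of all genes. Voom gave 10 in the Axin2 line (14.8%) and 14 in the posterior part (9.82%). The posterior libraries alone, with 18 members tested, gave 5 in the posterior part (7.6%). The fit without the 5 libraries gave 1 in the Axin2 line (1.06%).

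For the labelled gate DESeq2 gave 4, 5 and 1 in the Axin2 line, Id2 line and posterior part (5.87%, 4.38% and 0.432% of all genes), against 0, 1 and 0 with edgeR. In the 2 lines voom gave 1 and 0 (0.593% and 0.0645%) and the fit without the 5 libraries 1 and 3 (0.985% and 5.26%). The Id2 libraries alone, with 21 members tested, gave 0 (0%). For the label DESeq2 gave 2 in Lgr5+ cells of the Axin2 line (3.91%). Against Lgr5- cells it gave 1, 2 and 3 in the Axin2 line, anterior and posterior part (0.258%, 0.2% and 0.451%), with 2 by voom in the Axin2 line (2.21%). For the differences of the gate DESeq2 gave 2 between the parts (0.406%) and 1 between the lines (0.277%), and voom 1 between the parts (0.29%).

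With the replicate number as a block, 12 members were called between the parts, 1 in labelled, 3 in Lgr5+ and 4 in Lgr5- cells, 4 in the posterior gate and 0 in the Id2 labelled gate. In that order 16.7%, 3.74%, 4.8%, 7.37%, 11.7% and 0.474% of all genes were called. These fits tested 22 members between the parts, 18 in the posterior gate and 21 in the Id2 labelled gate. The block changed no other count by over 1.5 times. Leaving out each library in turn gave 2 to 3 calls between the parts, 0 to 0 in Lgr5+ cells, 5 to 10 between stages, 7 to 8 for the anterior and 0 to 3 for the posterior part against E13.5, 0 to 1 in the Axin2 and 1 to 3 in the Id2 labelled gate, 0 to 1 for the label in Lgr5+ cells of the Axin2 line, and 0 in the others. The cause of these shifts was not tested. Most members hold few reads per library, so that a difference below the floor of 3 reads (0.0795 to 0.182 CPM) was not detectable at this depth.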
